A study of Mus musculus with 8 samples.

Results

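Hypoxia-response cells were defined here as single cells from mouse bone marrow cultures in which the transcripts of Bnip3, Ankrd37, Egln3 and Ero1l were jointly high. A cell was taken when these 4 genes together held at least 6 of every 10000 unique molecular identifiers (UMIs, one for each captured RNA molecule) and at least 3 UMIs in all. The sum per 10000 is called the hypoxia score below. Of 17384 cells that passed the filters, from 17866 deposited, 2466 were hypoxia-response cells. They were 1430 of 8321 cells grown with deoxycholic acid and 1036 of 9063 cells grown in medium alone. The 4 genes chose the cells, so their levels are a description only, and the labels give no oxygen measurement.

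Whole marrow was cultured for 1 week on pre-irradiated AFT024 cells, a fibroblast line from mouse embryonic liver that serves as a feeder layer, in long-term culture medium with hydrocortisone. The deoxycholic acid group had this secondary bile acid, which gut bacteria make, at 35 µM in that medium, and the media control group had none of it. In both groups lineage-negative cells were sorted before capture by droplets, so every share describes cells that passed that gate. Strain and age of the mice are not stated in the labels, and a lithocholic acid culture that the design names was not analysed here. Each group has 4 labelled samples that the cell names do not tell apart, so a group was treated as 1 library; no test between libraries could be made and the differences below have no replicate check.

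Cells adapt to low oxygen through hypoxia-inducible factors (HIFs), transcription factors whose alpha subunits are hydroxylated by prolyl hydroxylases and destroyed while oxygen is present. When oxygen is short the alpha subunit persists, pairs with Arnt and binds short DNA elements with the core ACGTG or GCGTG, and the induced genes favour glucose uptake, glycolysis and removal of mitochondria. Bone marrow is a tissue of low oxygen tension, and neutrophils and their precursors rely heavily on glycolysis. Bnip3 is a mitophagy receptor of the outer mitochondrial membrane, Ankrd37 is an ankyrin repeat protein encoded by a HIF target gene, Egln3 is one of the prolyl hydroxylases, and Ero1l is an oxidoreductase that supports disulphide bond formation in the endoplasmic reticulum.

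Promoters of the 4 score genes are shown because the cells were chosen on the sum of these transcripts. All 4 were found in RefSeq's promoter table for GRCm38.p6, with Ero1l listed there as Ero1a, and each window runs from 250 bases before to 50 bases after the gene start. Each is on the minus strand and is written in the direction of the gene. Capitals mark every ACGTG and GCGTG on either strand, so that CACGT and CACGC are their reverse complements, and matches may overlap, as in CACGTG, which counts for both strands.
Bnip3: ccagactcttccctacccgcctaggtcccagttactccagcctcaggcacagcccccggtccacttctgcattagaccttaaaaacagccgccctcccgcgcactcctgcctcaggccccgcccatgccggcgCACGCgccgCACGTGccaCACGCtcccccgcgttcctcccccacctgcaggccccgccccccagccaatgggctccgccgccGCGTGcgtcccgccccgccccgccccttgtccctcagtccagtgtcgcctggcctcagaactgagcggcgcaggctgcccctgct
Ankrd37: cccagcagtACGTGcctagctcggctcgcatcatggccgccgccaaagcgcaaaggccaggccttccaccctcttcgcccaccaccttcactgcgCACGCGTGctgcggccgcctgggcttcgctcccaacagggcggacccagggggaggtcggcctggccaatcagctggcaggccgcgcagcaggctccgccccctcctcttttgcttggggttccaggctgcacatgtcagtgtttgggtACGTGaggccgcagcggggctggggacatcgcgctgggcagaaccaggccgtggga
Egln3: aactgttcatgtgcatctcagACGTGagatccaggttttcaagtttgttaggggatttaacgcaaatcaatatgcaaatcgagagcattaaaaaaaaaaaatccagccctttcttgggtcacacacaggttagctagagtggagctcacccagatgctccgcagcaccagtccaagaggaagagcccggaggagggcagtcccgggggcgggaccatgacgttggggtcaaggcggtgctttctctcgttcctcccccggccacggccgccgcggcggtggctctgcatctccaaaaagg
Ero1l: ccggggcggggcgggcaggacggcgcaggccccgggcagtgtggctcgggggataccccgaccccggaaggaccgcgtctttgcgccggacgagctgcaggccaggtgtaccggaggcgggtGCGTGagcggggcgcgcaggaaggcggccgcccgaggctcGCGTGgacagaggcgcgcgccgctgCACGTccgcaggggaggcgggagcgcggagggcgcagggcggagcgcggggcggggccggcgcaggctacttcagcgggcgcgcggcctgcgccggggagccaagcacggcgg
The Bnip3 window, chr7:138909457-138909756, had 2 matches to ACGTG and 3 to GCGTG. The Ankrd37 window, chr8:45999801-46000100, had 2 of each. The Egln3 window, chr12:54203825-54204124, had a single ACGTG, and the Ero1l window, chr14:45318523-45318822, had 1 ACGTG and 2 GCGTG. These short strings are common: of 32851 promoter windows, 19.6% held ACGTG, 32.4% held GCGTG and 43.8% held either. A match is a description of letters and not a binding site.

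The deposited counts held 8520 barcodes with deoxycholic acid and 9346 in the media control. The kept cells had median depths of 14829 UMIs with deoxycholic acid and 19168 in the media control. Hypoxia-response cells were shallower than the other cells of their library: their medians were 12939 UMIs with deoxycholic acid and 16442.5 in the media control, while the other cells had 15303 with deoxycholic acid and 19561 in the media control. Mitochondrially encoded genes took 2.04% of their UMIs with deoxycholic acid and 2.02% in the media control, against 1.98% (deoxycholic acid) and 1.94% (media control) in the other cells of the same libraries. The libraries shared 25 barcodes among deposited cells, 24 among kept cells and 1 among hypoxia-response cells. All intervals are exact 95% intervals; since UMIs of 1 cell are not independent and cells of 1 library share their culture and handling, they cover counting error only.

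Hypoxia-response cells made up 17.2% of deoxycholic acid cells (16.4 to 18.0) and 11.4% of media control cells (10.8 to 12.1), a ratio of 1.503 (1.39 to 1.63). The libraries differed mainly in the upper part of the score distribution. The median score of all kept cells was 2.34 with deoxycholic acid and 2.02 in the media control, and the 99th percentile was 36.1 with deoxycholic acid and 26.2 in the media control. By the score alone, without the minimum of 3 UMIs in all, at least 1 UMI per 10000 was reached by 78.7% of deoxycholic acid cells and 76.4% of media control cells, a ratio of 1.03 (0.995 to 1.07). The ratio was larger at higher scores: 1.63 (1.45 to 1.82) at 10 or more, 1.81 (1.49 to 2.20) at 20 or more and 2.48 (1.81 to 3.44) at 30 or more. The last of these rests on 132 deoxycholic acid cells and 58 media control cells. At 50 or more, only 25 deoxycholic acid and 14 media control cells remained, and the interval, 0.973 to 4.05, included 1.

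**Figure D1:**
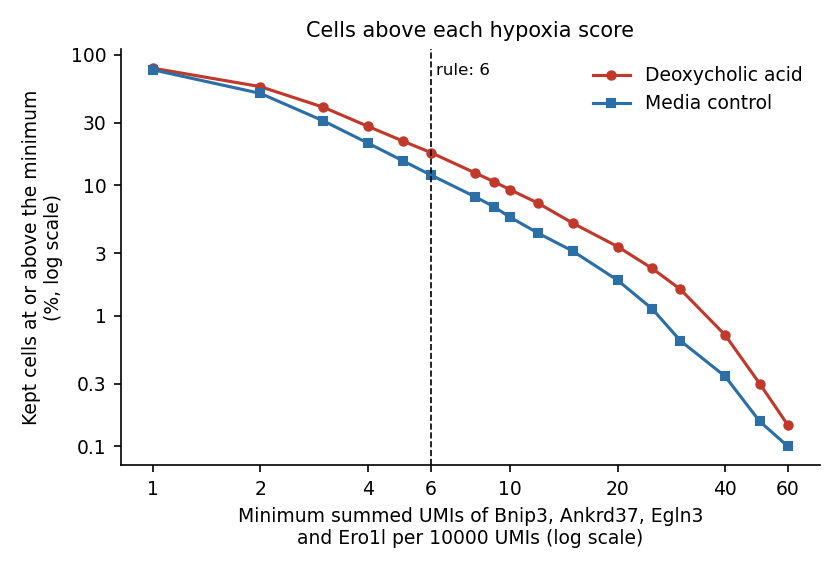
Share of kept cells (y axis, %, log scale) whose hypoxia score reached the minimum on the x axis (summed UMIs of Bnip3, Ankrd37, Egln3 and Ero1l per 10000, log scale), for deoxycholic acid (circles) and media control (squares), by the score alone; the dashed line is the threshold of 6. The libraries are close at 1 (78.7% with deoxycholic acid and 76.4% in the media control) and apart at 20 (3.38% with deoxycholic acid and 1.86% in the media control).

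Depth differed between the libraries, and a shallow cell has a noisier score. With every cell thinned to 5000 UMIs, which left out 651 deoxycholic acid cells and 669 media control cells, the share was 24.6% with deoxycholic acid and 18.6% in the media control, a ratio of 1.33 (1.24 to 1.42). In these thinned cells the ratio was 1.53 at a score of 10 or more, 1.68 at 20 or more and 2.24 at 30 or more. The thinned cells thus had the same order of libraries at every one of these scores, at smaller ratios than the full counts.

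The threshold cut through a continuum of scores. Among cells with at least 3 UMIs of the 4 genes, just inside it, at scores of 6 to 6.5, lay 132 deoxycholic acid cells and 104 media control cells, and just outside, at 5.5 to 6, lay 130 deoxycholic acid cells and 113 media control cells. Bnip3 was at 208 CPM (its counts per 1000000 UMIs summed over the cells of a set) in the inside deoxycholic acid cells and 196 CPM in the inside media control cells, against 202 CPM (deoxycholic acid) and 165 CPM (media control) in the outside cells of the same libraries. Selenbp1, which the score does not use, was at 33.1 CPM inside with deoxycholic acid and 29.7 CPM inside in the media control, against 23.7 CPM (deoxycholic acid) and 30.6 CPM (media control) outside. Cells on both sides of the threshold were thus close to each other in these values.

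Each kept cell was placed at the stage of the gene that stood highest relative to its mean over kept cells: Elane (neutrophil elastase, of the primary granules made first), Ngp (neutrophilic granule protein, of the later secondary granules) or Retnlg (resistin-like gamma, of maturing neutrophils). A cell with all 3 genes below 0.5 times their means was called low in all 3. Hypoxia-response cells were found at every stage. With deoxycholic acid they were 37.1% Elane-led, 40.6% Ngp-led, 11.7% Retnlg-led and 10.6% low in all 3, while in the media control they were 34.9% Elane-led, 40.6% Ngp-led, 14.3% Retnlg-led and 10.1% low in all 3. The other cells of the deoxycholic acid library were 35.9% Elane-led, 44.4% Ngp-led, 10.0% Retnlg-led and 9.66% low in all 3, and those of the media control 38.9% Elane-led, 39.8% Ngp-led, 10.9% Retnlg-led and 10.4% low in all 3. Hypoxia-response cells were thus spread over all the stages, with some differences from the other cells. Counting intervals did not overlap for Retnlg-led cells of the media control (12.2 to 16.6 against 10.2 to 11.6 in the others). The same held for Ngp-led cells with deoxycholic acid (38.1 to 43.2 against 43.3 to 45.6 in the others). A total of 272 hypoxia-response cells, 11.0%, lay near a border between stages, with the top 2 ratios within 1.5 times of each other, as did 9.78% of all kept cells.

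The deoxycholic acid library had the larger share at each of the 4 stages. Among Elane-led cells, 530 of 3004 were hypoxia-response cells with deoxycholic acid (17.6%; 16.3 to 19.0) and 362 of 3488 in the media control (10.4%; 9.39 to 11.4), a ratio of 1.70 (1.48 to 1.95). Among Ngp-led cells they were 581 of 3643 with deoxycholic acid (15.9%) and 421 of 3617 in the media control (11.6%), a ratio of 1.37 (1.21 to 1.56). Among Retnlg-led cells they were 168 of 857 with deoxycholic acid (19.6%) and 148 of 1019 in the media control (14.5%), a ratio of 1.35 (1.08 to 1.70). Among cells low in all 3 genes they were 151 of 817 with deoxycholic acid (18.5%) and 105 of 939 in the media control (11.2%), a ratio of 1.65 (1.28 to 2.14), but this ratio was 1.14 (0.767 to 1.70) when stages were set from sums of 4 genes each. The intervals of the 4 ratios overlapped. The order of the stages by share followed the rule: Retnlg-led cells stood above Elane-led cells in both libraries here. Another run left Bnip3 out of the score and also lowered the minimum to 3 per 10000. Retnlg-led cells then had 20.5% with deoxycholic acid and 18.0% in the media control. Elane-led cells had 29.7% (deoxycholic acid) and 22.6% (media control). With Bnip3 kept and a minimum of 4, Retnlg-led cells had 25.2% with deoxycholic acid and 20.1% in the media control. Elane-led cells had 28.6% (deoxycholic acid) and 19.7% (media control). The change of order thus cannot be assigned to Bnip3 alone. Applying the media control's share at each stage to the deoxycholic acid library's stages gave 11.4%, against the 17.2% observed.

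**Figure D2:**
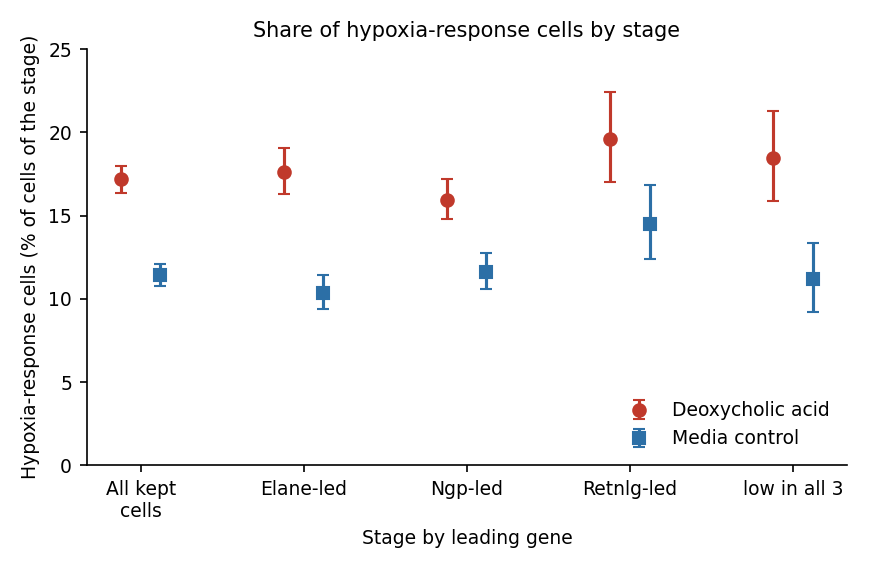
Hypoxia-response cells as a share of the kept cells of each stage (y axis, %), for deoxycholic acid (circles, left of each pair) and media control (squares); bars are exact 95% binomial intervals, which cover counting error only. The deoxycholic acid point lies above the media control point at every stage, from 15.9% against 11.6% in Ngp-led cells to 19.6% against 14.5% in Retnlg-led cells.

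Stage genes were at high levels in the hypoxia-response cells of their own stage. For Elane, Ngp and Retnlg this follows from the placing of cells by these genes and is a description only. In Elane-led ones Elane was at 6171 CPM with deoxycholic acid and 6705 CPM in the media control, and Mpo (myeloperoxidase, another primary granule enzyme) at 1552 CPM (deoxycholic acid) and 1167 CPM (media control) in the same libraries. In Ngp-led ones Ngp was at 30791 CPM with deoxycholic acid and 28017 CPM in the media control, and Ltf (lactoferrin) at 1600 CPM (deoxycholic acid) and 1355 CPM (media control). Ngp was also abundant in Elane-led ones, at 6079 CPM with deoxycholic acid and 6243 CPM in the media control. It was at 20529 CPM (deoxycholic acid) and 19443 CPM (media control) in Retnlg-led ones. In Retnlg-led ones Retnlg was at 1586 CPM with deoxycholic acid and 1731 CPM in the media control. Ltf in that last stage was lower than in the other Retnlg-led cells, at 2714 CPM with deoxycholic acid and 2338 CPM in the media control for hypoxia-response cells, against 4492 CPM (deoxycholic acid) and 3865 CPM (media control) for the others. Mmp8 (neutrophil collagenase) showed the same order there, at 743 CPM with deoxycholic acid and 806 CPM in the media control, against 1140 CPM (deoxycholic acid) and 1179 CPM (media control) in the others. Ltf and Mmp8 were chosen for display after their values were seen.

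The score genes did not contribute equally. Bnip3 gave 38.9% of the score's UMIs with deoxycholic acid and 32.7% in the media control, and Ero1l gave 40.6% (deoxycholic acid) and 43.1% (media control). Ankrd37 gave 5.65% with deoxycholic acid and 9.99% in the media control. Summed over hypoxia-response cells, Ankrd37 was at 76.7 CPM with deoxycholic acid and 130 CPM in the media control, while Bnip3 was at 528 CPM with deoxycholic acid and 425 CPM in the media control. The genes of the score thus differed between the libraries in opposite directions. The same held in the other cells, where Ankrd37 was at 4.68 CPM with deoxycholic acid and 7.81 CPM in the media control, and Bnip3 at 44.3 CPM (deoxycholic acid) and 35.2 CPM (media control). Ankrd37 was lower with deoxycholic acid at all 4 stages, from 72.1 CPM against 115 CPM in Elane-led to 141 CPM against 202 CPM in Retnlg-led hypoxia-response cells. Egln3 was at 203 CPM with deoxycholic acid and 184 CPM in the media control, and Ero1l at 551 CPM (deoxycholic acid) and 559 CPM (media control).

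Levels of 2 marker genes outside the score are given as a description. The cells and markers were chosen with earlier results of these data known, so these levels are not an independent check of the label. Selenbp1 encodes a selenium-binding methanethiol oxidase, and its close copy Selenbp2 may share its reads. It was at 80.1 CPM with deoxycholic acid and 96.6 CPM in the media control in hypoxia-response cells, against 8.26 CPM (deoxycholic acid) and 9.58 CPM (media control) in the other cells. Slc2a3, the glucose transporter GLUT3, was at 229 CPM with deoxycholic acid and 202 CPM in the media control, against 63.7 CPM (deoxycholic acid) and 52.3 CPM (media control) in the other cells. Both markers stood above the other cells in both libraries and at all 4 stages. Slc2a3 also varied with stage: in hypoxia-response cells it was at 136 CPM with deoxycholic acid and 120 CPM in the media control among Elane-led cells, and at 514 CPM (deoxycholic acid) and 445 CPM (media control) among Retnlg-led cells. Selenbp1 showed no such order, with 88.0 CPM and 122 CPM with deoxycholic acid at the same stages and 112 CPM and 101 CPM in the media control.

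These genes were graded with the score. At scores of 6 to 10 (682 deoxycholic acid and 535 media control cells) Selenbp1 was at 38.4 CPM with deoxycholic acid and 55.5 CPM in the media control. At 10 to 20 (470 deoxycholic acid and 333 media control cells) it was at 89.4 CPM with deoxycholic acid and 112 CPM in the media control, and at 20 or more (278 deoxycholic acid and 168 media control cells) at 191 CPM (deoxycholic acid) and 215 CPM (media control). Slc2a3 ran from 109 CPM with deoxycholic acid and 102 CPM in the media control at 6 to 10, to 622 CPM (deoxycholic acid) and 514 CPM (media control) at 20 or more. Ndrg1, a stress-induced regulator of growth, ran from 32.4 CPM with deoxycholic acid and 39.4 CPM in the media control to 171 CPM (deoxycholic acid) and 174 CPM (media control) over the same bands. The steepness differed among genes. Ldha, the lactate dehydrogenase subunit that favours lactate formation, was already at 1099 CPM with deoxycholic acid and 1066 CPM in the media control at 6 to 10, against 626 CPM (deoxycholic acid) and 627 CPM (media control) below 6, and at 1358 CPM (deoxycholic acid) and 1386 CPM (media control) at 20 or more.

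**Figure D3:**
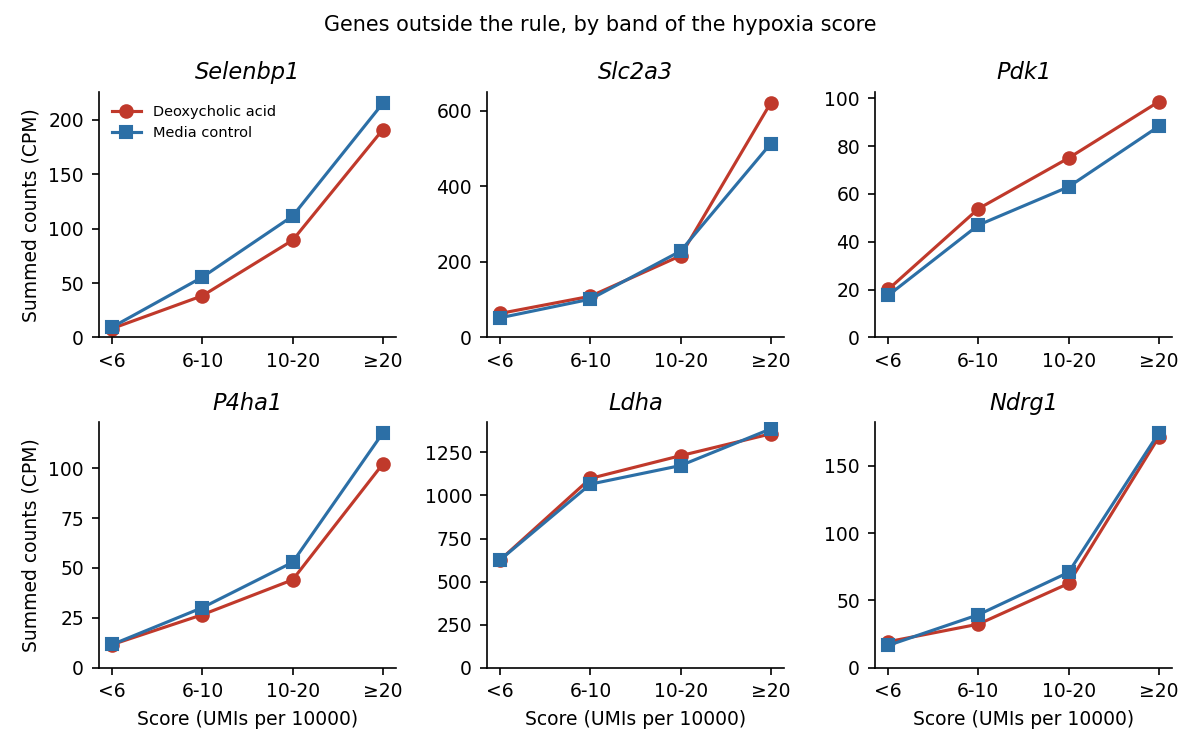
Summed counts (y axes, CPM, from 0) of 6 genes outside the score in kept cells below a score of 6 and in hypoxia-response cells of 3 score bands (x axes, UMIs per 10000), for deoxycholic acid (circles) and media control (squares). All 6 genes are higher in each higher band in both libraries; Selenbp1 is at 191 CPM with deoxycholic acid and 215 CPM in the media control at 20 or more.

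Hypoxia-response cells were then set against the other cells of the same library and stage, in 8 strata, as the mean over strata of the log2 ratio of CPM with 1 CPM added. A ratio of at least 0.5 either way was taken as a difference, since no replicate spread is available. Of 4804 genes compared, 292 were higher (6.08%) and 120 were lower (2.5%), with a median of 0.06 and a central 95% of -0.50 to 0.73. With the ratios scaled by their median, 230 were higher and 175 lower. Because the cells were selected on 4 HIF-linked transcripts of the same contrast, what follows is a description of the selected cells and not independent evidence of their state.

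Of 43 listed hypoxia-induced genes outside the score, 29 reached 20 CPM and 50 UMIs on either side of the comparison, and 26 of these were higher and 0 were lower, with a median of 1.34. A gene that reached the minimum only through its level in hypoxia-response cells had to be higher there. Among such genes were Selenbp1, Slc2a1, P4ha1, Vegfa and Ndrg1, each under 20 CPM in the other cells of both libraries. The count of higher genes and the median are thus partly set by the minimum. Among the transporters and enzymes of glucose use, Slc2a1 (the glucose transporter GLUT1) had a log2 ratio of 1.71, at 41.0 CPM with deoxycholic acid and 36.2 CPM in the media control against 11.2 CPM (deoxycholic acid) and 10.2 CPM (media control) in the other cells. Pdk1, which blocks the entry of pyruvate into mitochondria, had 1.77. Metallothioneins, metal-binding proteins, were prominent: Mt1 had a log2 ratio of 2.00, at 5832 CPM with deoxycholic acid and 4240 CPM in the media control against 1877 CPM (deoxycholic acid) and 1374 CPM (media control), and Mt2 had 2.62. P4ha1, a collagen prolyl hydroxylase subunit, had 2.08, and Fam162a, a mitochondrial protein, had 1.97. Mif, a cytokine, had a wide range over strata, 0.61 to 2.48. The 3 genes short of 0.5 were Pfkfb4 (0.02), which regulates glycolytic flux, Cited2 (0.14), an inhibitor of HIF activity, and Jmjd6 (0.43), a dioxygenase.

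Glycolysis was covered by 16 compared genes of 20, of which 15 were higher, 0 were lower and the median was 1.13. Aldoc, an aldolase, had the highest log2 ratio, 1.94, and Slc16a3, the lactate exporter MCT4, had 1.49. Gapdh, the most abundant, had 0.77, at 3612 CPM with deoxycholic acid and 3919 CPM in the media control against 2228 CPM (deoxycholic acid) and 2418 CPM (media control) in the other cells. The exception was Hk3, a hexokinase of myeloid cells, at -0.01, whereas Hk2, the inducible hexokinase, had 1.27. All 15 higher genes were higher in each of the 8 strata, as were 908 of all 4804 genes compared. The strata share the choice of cells by the score and are not separate checks.

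**Figure D4:**
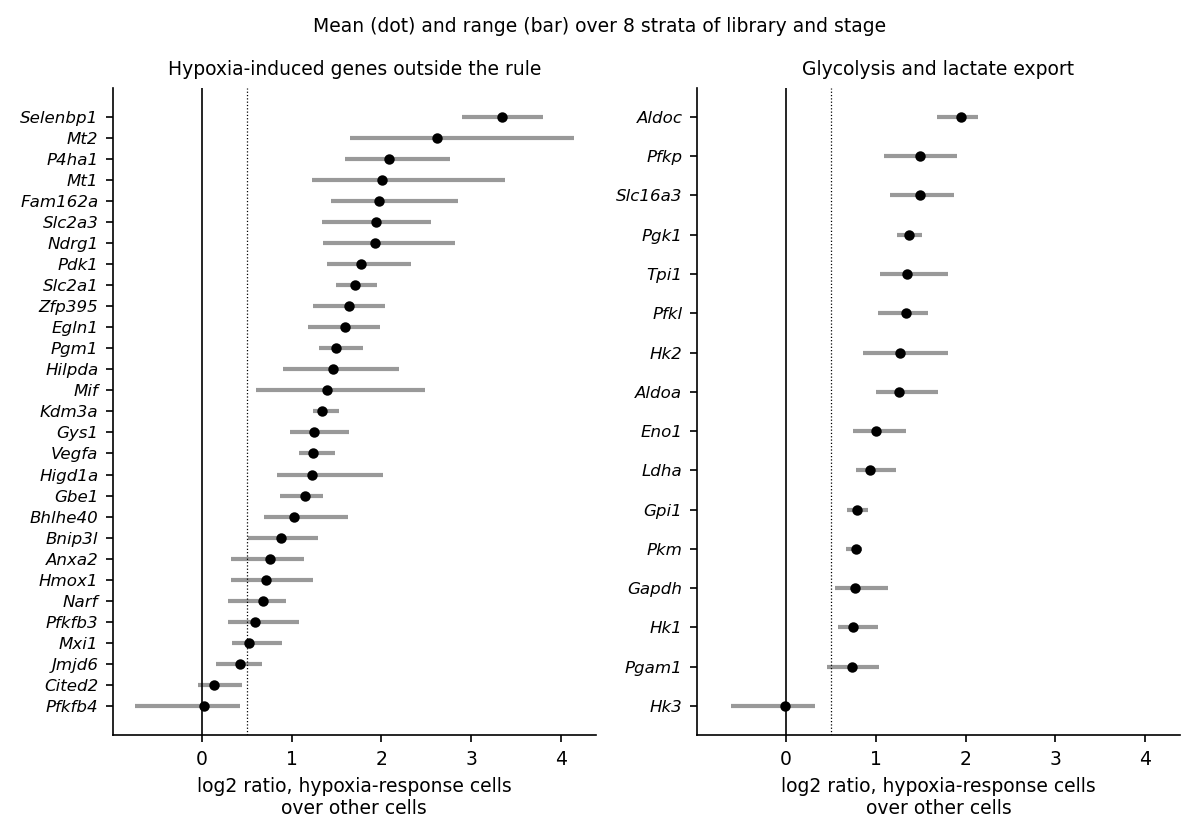
Log2 ratio (x axes) of hypoxia-response cells over other cells of the same library and stage for the 29 compared hypoxia-induced genes outside the score (left) and the 16 compared glycolysis genes (right); dots are means and bars ranges over 8 strata, and the dotted line is 0.5. Selenbp1 (3.34) and Aldoc (1.94) lead the panels, and Pfkfb4 (0.02) and Hk3 (-0.01) lie near 0. Selenbp1 was under 20 CPM in the other cells, so the minimum set its direction.

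Of the HIF machinery itself, few genes were abundant enough to compare. Of 3 compared components only Egln1, the main oxygen-sensing prolyl hydroxylase and itself a HIF target, was higher, at 1.60. Hif1a had 0.02, at 70.6 CPM with deoxycholic acid and 51.2 CPM in the media control in hypoxia-response cells and 70.4 CPM (deoxycholic acid) and 52.0 CPM (media control) in the other cells. Among 9 compared genes of mitophagy and autophagy, 2 were higher: Bnip3l, the paralogue of Bnip3, at 0.88, and Map1lc3a, an autophagosome protein, at 0.66. Of 22 respiratory chain subunits 0 were higher and 1 was lower, with a median of 0.00. Of 13 mitochondrially encoded genes only mt-Nd6 was past 0.5, at 0.56.

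Several growth-arrest genes were higher, and so were a few genes of G2 and M phase. Of 10 compared CDK inhibitors and growth-arrest genes, 6 were higher, with a median of 0.58. Cdkn1a (p21) had 1.55, at 89.2 CPM with deoxycholic acid and 97.4 CPM in the media control against 33.1 CPM (deoxycholic acid) and 30.4 CPM (media control), and Cdkn1b (p27) had 0.88. Of 18 G2 and M phase genes 4 were higher (Bub1, Cenpe, Cenpf and Nusap1, all of the mitotic spindle or kinetochore) and 0 were lower, all 18 had a ratio above 0, and the median was 0.28. Mki67, a proliferation marker, had 0.36, at 592 CPM with deoxycholic acid and 506 CPM in the media control against 517 CPM (deoxycholic acid) and 406 CPM (media control). Of 17 S phase genes 0 were higher and 1 was lower, 1 had a ratio above 0, and the median was -0.13. Over all genes compared the median was 0.06, and the share above 0 is not given.

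The 4 lowest ratios were those of Pop1 (-1.23, an RNase P and MRP subunit), Fkbp11 (-1.05, a prolyl isomerase of the secretory pathway), Nolc1 (-1.04, a nucleolar phosphoprotein) and Pinx1 (-0.99), each lower in 8 of 8 strata. Nolc1 was at 66.2 CPM with deoxycholic acid and 53.7 CPM in the media control, against 114 CPM (deoxycholic acid) and 118 CPM (media control) in the other cells. Srm (-0.94, spermidine synthase) and Gpatch4 (-0.92) were lower in the same number of strata, as were 430 of all 4804 genes compared. Of 13 compared genes of the unfolded protein and integrated stress responses 2 were lower, Sdf2l1 (-0.89) and Calr (-0.69), both of the endoplasmic reticulum folding machinery, and 1 was higher, Ddit3 (0.97), the factor CHOP. Of 18 cytosolic ribosomal protein genes none passed 0.5 (0 higher and 0 lower), with a median of 0.25. Of 15 antioxidant and iron genes, Hmox1 (haem oxygenase 1) was higher at 0.72, and Prdx1 (-0.55) and Txnrd1 (-0.53) were lower.

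Other genes led the ranking without belonging to the hypoxia list. Basp1, a membrane-associated signalling protein, had 3.33, at 31.1 CPM with deoxycholic acid and 29.3 CPM in the media control against 1.95 CPM (deoxycholic acid) and 2.92 CPM (media control). Prelid2, of a family of mitochondrial lipid carriers, had 2.72, at 33.97 CPM (deoxycholic acid) and 35.95 CPM (media control) against 4.38 CPM (deoxycholic acid) and 4.95 CPM (media control). The predicted gene Gm15283 had 3.15. All of these were higher in 8 of 8 strata. Basp1 and Prelid2 were under 20 CPM in the other cells, so they were compared only through their level in hypoxia-response cells. Their direction was thus set by the minimum, and the strata are a description only. As means over strata, few granule genes were past 0.5: of 12 secondary granule genes 0 were past it either way, and of 10 primary granule and progenitor genes Kit, the stem cell factor receptor, was higher at 0.74 and Ms4a3 lower at -0.56. The secondary granule genes had a median of -0.14, against 0.06 over all genes compared. Single stages could differ more, as Ltf did among Retnlg-led cells, where it was lower in hypoxia-response cells in both libraries. Of 9 late neutrophil genes only Stfa2l1, a stefin, was past 0.5, at -0.63.

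The remaining lists showed few differences between hypoxia-response cells and others. Past 0.5 either way were 0 of 12 cholesterol synthesis genes (median 0.20), 0 of 5 apoptosis and survival genes (median 0.04) and 0 of 7 myeloid transcription factors (median -0.10). Of 12 immediate early genes Egr1 (0.82) and Ier3 (0.58) were higher and Fosb (-0.91) was lower, with a range for Fosb of -3.08 to 1.20 over strata. Of 7 inflammatory genes Ccl4, a chemokine, was higher, at 0.94. Of 6 monocyte genes Fn1 (fibronectin, 1.12) and F13a1 (coagulation factor XIII, 0.81) were higher and Lpl (lipoprotein lipase, -0.76) was lower. Of 4 basophil genes Hdc (0.71) and Cpa3 (0.56) were higher, and of 2 eosinophil genes Prg2 (1.05) was higher and Ear2 (-0.61) lower. Ccl4, Hdc, Cpa3 and Prg2 changed sign when Ero1l was left out of the score, and without the basophil-marked cells described below Hdc had 0.32 and Cpa3 had 0.15, no longer past 0.5.

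Markers of other cell types were examined because the rule did not use lineage. The 10 genes of stromal feeder cells summed to 4.53 CPM in hypoxia-response cells with deoxycholic acid and 3.69 CPM in the media control, against 3.52 CPM (deoxycholic acid) and 3.69 CPM (media control) in the other cells, with 1 of the genes at 0. Erythroid and megakaryocyte genes summed to 27.0 CPM with deoxycholic acid and 31.2 CPM in the media control, against 29.9 CPM (deoxycholic acid) and 36.3 CPM (media control). Basophil and mast cell genes stood higher, at 273 CPM with deoxycholic acid and 354 CPM in the media control, against 125 CPM (deoxycholic acid) and 166 CPM (media control). Eosinophil genes summed to 166 CPM with deoxycholic acid and 174 CPM in the media control, against 112 CPM (deoxycholic acid) and 132 CPM (media control). Monocyte and macrophage genes summed to 1512 CPM with deoxycholic acid and 1440 CPM in the media control, against 1391 CPM (deoxycholic acid) and 1267 CPM (media control), and 2 of the 13, C1qa and C1qb of macrophages, were at 0 in hypoxia-response cells. Lymphoid genes summed to 119 CPM with deoxycholic acid and 126 CPM in the media control, against 111 CPM (deoxycholic acid) and 141 CPM (media control). Dendritic cell and class II genes summed to 20.1 CPM with deoxycholic acid and 22.8 CPM in the media control, against 9.27 CPM (deoxycholic acid) and 8.56 CPM (media control).

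A small number of hypoxia-response cells carried basophil proteases. With a limit set after seeing the data, at least 20 UMIs of Mcpt8 and Prss34 per 10000, 27 of 1430 such cells with deoxycholic acid (1.89%) and 33 of 1036 in the media control (3.19%) were marked, against 0.639% (deoxycholic acid) and 1.10% (media control) of the other cells. Their score rested on Ero1l, which gave 76.8% of its UMIs with deoxycholic acid and 76.5% in the media control, against 40.2% (deoxycholic acid) and 42.6% (media control) in the unmarked hypoxia-response cells. This was not particular to them: in the other basophil-marked cells Ero1l gave 81.1% (deoxycholic acid) and 77.6% (media control). In the other unmarked cells it gave 61.2% (deoxycholic acid) and 63.0% (media control). Bnip3 was lower in the marked hypoxia-response cells, at 176 CPM with deoxycholic acid and 133 CPM in the media control, against 532 CPM (deoxycholic acid) and 430 CPM (media control) in the unmarked ones. Selenbp1 was at 27.1 CPM with deoxycholic acid and 68.1 CPM in the media control, against 80.7 CPM (deoxycholic acid) and 97.1 CPM (media control). Slc2a3 went the other way, at 271 CPM with deoxycholic acid and 233 CPM in the media control, against 228 CPM (deoxycholic acid) and 201 CPM (media control). The marked cells thus had less Bnip3 and Selenbp1 and more Slc2a3 than the unmarked ones in both libraries. Between the libraries, the listed genes whose call changed without these cells are given below.

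Within hypoxia-response cells, deoxycholic acid was compared with media control over 4823 genes. At a log2 ratio of at least 0.5 either way, 84 genes were higher (1.74%) and 116 lower (2.41%), with a median of 0.03 and a central 95% of -0.49 to 0.45. With the ratios scaled by their median, 66 were higher and 138 lower. In the other cells 77 of 4645 genes were higher (1.66%) and 150 lower (3.23%). The shares were close, and no test of them was made.

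Hypoxia-induced genes outside the score had similar levels in the hypoxia-response cells of both libraries. Of the 29 compared hypoxia-induced genes outside the score 0 were higher and 1 was lower, with a median of 0.01, against a median of 0.12 for the same genes in the other cells. The lower one was Hilpda, a lipid droplet protein, at 29.99 CPM with deoxycholic acid and 46.0 CPM in the media control, a log2 ratio of -0.62 (-0.77 to -0.47), and it was at 11.3 CPM (deoxycholic acid) and 16.7 CPM (media control) in the other cells. Fam162a was at 404 CPM with deoxycholic acid and 518 CPM in the media control, a ratio of -0.36. Mt1 leaned the other way, at 0.46 (0.45 to 0.47), and by 0.45 in the other cells. Of 16 glycolysis genes 1 was higher, Hk2, at 233 CPM with deoxycholic acid and 152 CPM in the media control, a log2 ratio of 0.62 (0.55 to 0.69). Hk2 was higher at each of the 4 stages and also in the other cells, at 110 CPM with deoxycholic acid and 67.1 CPM in the media control. Hif1a had 0.46 (0.34 to 0.58) in hypoxia-response cells and 0.44 in the other cells.

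Most of the genes with the largest ratios differed as much in the other cells. Gm10076, a predicted gene that may share reads with a close copy, had 1.09 in hypoxia-response cells and 1.04 in the others. Atp5k, a subunit of the mitochondrial ATP synthase, was at 756 CPM with deoxycholic acid and 430 CPM in the media control, with 0.82 in hypoxia-response cells and 0.75 in the others. Smim26, a small membrane protein, had -1.79 in hypoxia-response cells and -1.70 in the others, and Sdhd, a succinate dehydrogenase subunit, -1.26 in hypoxia-response cells and -1.25 in the others. Cebpb, a transcription factor of stress granulopoiesis, was at 140 CPM with deoxycholic acid and 272 CPM in the media control in hypoxia-response cells, with -0.95 there and -0.93 in the others. The ratios of these genes were thus close in both sets of cells. Of 13 mitochondrially encoded genes mt-Nd3 (0.66, and 0.60 in the others) and mt-Atp8 (0.54, and 0.57 in the others) were higher.

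**Figure D5:**
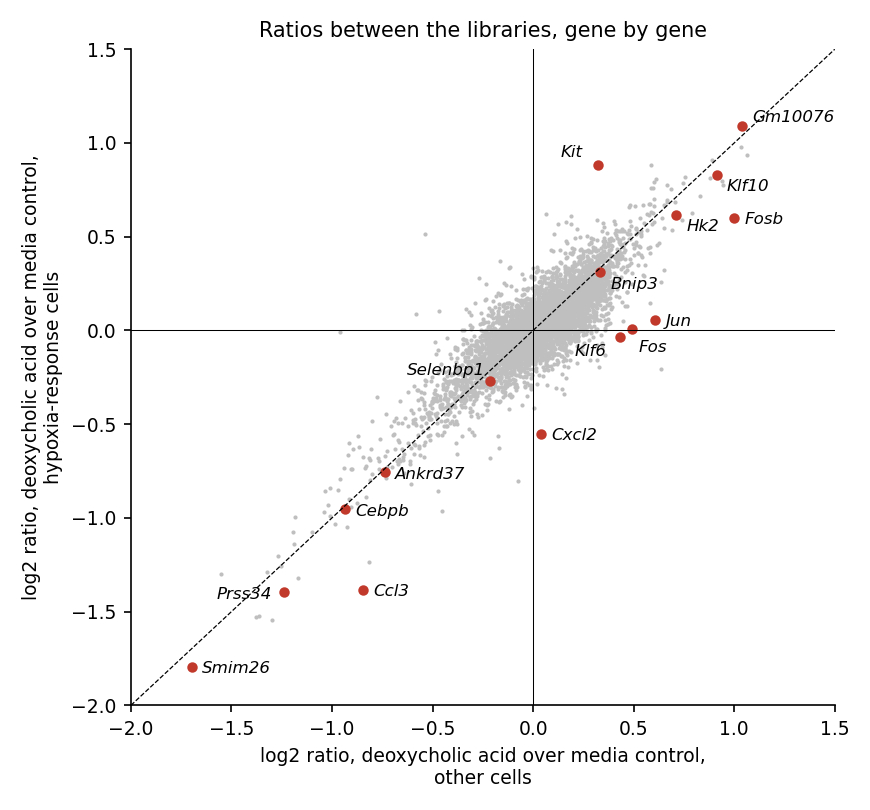
Log2 ratio of deoxycholic acid over media control in hypoxia-response cells (y axis) and in the other cells (x axis) for the 4823 compared genes (grey), with 16 selected genes in red and equal ratios on the dashed line. Gm10076 and Smim26 lie near that line; Jun (0.06 in hypoxia-response cells, 0.61 in the others), Cxcl2 (-0.55 in hypoxia-response cells, 0.04 in the others) and Kit (0.88 in hypoxia-response cells, 0.32 in the others) lie off it.

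Kit had a larger ratio in hypoxia-response cells than in the others, a difference with no test. It was at 33.3 CPM with deoxycholic acid and 18.1 CPM in the media control, a log2 ratio of 0.88 (0.69 to 1.08), while in the other cells it was at 20.2 CPM (deoxycholic acid) and 16.1 CPM (media control), a ratio of 0.32. In cells thinned to 5000 UMIs the ratio in hypoxia-response cells was 0.49 (0.20 to 0.78), short of 0.5. With deoxycholic acid Kit was highest in Elane-led cells, but in the media control's other cells it was highest in those low in all 3 (26.9 CPM). Among Elane-led cells, hypoxia-response cells had 53.1 CPM with deoxycholic acid and 26.6 CPM in the media control. The other Elane-led cells had 34.9 CPM (deoxycholic acid) and 23.6 CPM (media control). Mpo, another gene of early stages, was at 1552 CPM with deoxycholic acid and 1167 CPM in the media control in Elane-led hypoxia-response cells, a ratio of 0.41, and had 0.28 in the other Elane-led cells. It was named after its values were seen. Over the whole list of 10 primary granule and progenitor genes, Kit alone passed 0.5 and the median was -0.10.

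Immediate early genes, transcription factors and phosphatases induced within minutes of a stimulus, had smaller ratios in hypoxia-response cells than in the other cells, a difference that could not be tested with 1 library a group. Jun was at 317 CPM with deoxycholic acid and 305 CPM in the media control in hypoxia-response cells, a log2 ratio of 0.06 (0.00 to 0.11). In the other cells it was at 547 CPM with deoxycholic acid and 359 CPM in the media control, a ratio of 0.61. Fos was at 140 CPM with deoxycholic acid and 139 CPM in the media control in hypoxia-response cells, against 192 CPM (deoxycholic acid) and 136 CPM (media control) in the others. Both genes were thus higher with deoxycholic acid in the other cells and closer between the libraries in hypoxia-response cells. How close depended on a few cells: without the basophil-marked ones Fos was at 108 CPM with deoxycholic acid and 89.6 CPM in the media control in hypoxia-response cells, a ratio of 0.27 against 0.59 in the others, and Jun had 0.16 against 0.63. By stage, Fos had 0.21 in hypoxia-response cells against 0.82 in the others among Elane-led cells, 0.26 against 0.45 in Ngp-led, -0.65 against 0.23 in Retnlg-led and -0.29 against 0.24 in cells low in all 3. Of the 12 compared genes 2 were higher (Klf10, 0.83, and Fosb, 0.60) and 2 lower (Junb, -0.63, and Ier3, -0.54) in hypoxia-response cells, with a median of -0.10, whereas 4 were higher and 0 lower in the others, with a median of 0.39. All 12 had a smaller ratio in hypoxia-response cells than in the others. This order was not particular to them: 17 of 18 G2 and M phase genes, 22 of 29 hypoxia-induced genes and 7 of 7 myeloid transcription factors had it. It was rare in 18 ribosomal protein genes (0), 10 primary granule and progenitor genes (1) and 22 respiratory chain subunits (4). The share over all genes is not given here. The same 12 immediate early genes had the smaller ratio without the basophil-marked cells, where the medians were 0.03 in hypoxia-response cells and 0.42 in the others. Junb (-0.35) and Ier3 (-0.18) were no longer past 0.5 without those cells, and Egr1 (-0.53, against -0.31 with them) was newly so. For Jun the smaller ratio held at each of the 4 stages, with 0.36 in hypoxia-response cells against 0.74 in the others in Elane-led, 0.21 against 0.58 in Ngp-led, 0.12 against 0.32 in Retnlg-led and -0.64 against 0.41 in cells low in all 3. Of the 12 genes, all 12 had the smaller ratio in hypoxia-response cells among Elane-led cells and all 12 among cells low in all 3, of which 9 remained so without the basophil-marked cells. Among Ngp-led cells 10 did, with Fosb (1.38 against 1.05) among the exceptions, and among Retnlg-led cells 9, with Klf6 (0.30 against 0.16) and Klf10 (0.83 against 0.55) among the exceptions.

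Several inflammatory genes were lower with deoxycholic acid, and fewer without the basophil-marked cells. Of 8 compared inflammatory and NF-kappaB feedback genes 0 were higher and 4 were lower: Ccl3 (-1.38), Ccl4 (-1.23), Tnfaip3 (-0.80) and Cxcl2 (-0.55), with a median of -0.45 against -0.05 in the other cells. Ccl3 (-0.84) and Ccl4 (-0.82) were also lower in the other cells. The direction varied with stage for Ccl4 and Cxcl2 in hypoxia-response cells. Ccl4 had 1.75 in Retnlg-led and 0.34 in Ngp-led ones, but -0.85 in Elane-led ones and -1.80 in those low in all 3. Cxcl2 had 0.25 in Elane-led ones, -0.25 in Ngp-led, -0.82 in Retnlg-led and -0.98 in those low in all 3. Ccl3, a chemokine, was at 50.5 CPM with deoxycholic acid and 132 CPM in the media control in hypoxia-response cells. It was highest in cells low in all 3 stage genes, at 312 CPM with deoxycholic acid and 1242 CPM in the media control, against 16.5 CPM (deoxycholic acid) and 24.1 CPM (media control) in Elane-led ones. Without the basophil-marked cells Ccl3 was at 28.7 CPM (deoxycholic acid) and 53.1 CPM (media control), a ratio of -0.89, and Cxcl2 had -0.19. Below 20 CPM in both libraries without those cells were Ccl4 (-1.35), at 6.89 CPM with deoxycholic acid and 17.6 CPM in the media control, and Tnfaip3 (-0.48), at 8.15 CPM (deoxycholic acid) and 11.3 CPM (media control). The basophil protease Prss34 itself had -1.40 in all hypoxia-response cells, at 26.5 CPM with deoxycholic acid and 69.8 CPM in the media control, and Hdc, the histidine decarboxylase of basophils and mast cells, had -0.54. Without the marked cells Prss34 was near 0, at 1.01 CPM (deoxycholic acid) and 0.617 CPM (media control), and Hdc had -0.35 at 6.64 CPM (deoxycholic acid) and 8.47 CPM (media control). In the same unmarked cells Mcpt8, the other basophil protease, was at 54.4 CPM with deoxycholic acid and 33.2 CPM in the media control, a ratio of 0.71 against -0.08 with the marked cells included. The eosinophil granule gene Prg2 likewise had 1.51 without the marked cells, against -0.01 with them.

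A few growth-arrest genes were lower with deoxycholic acid in hypoxia-response cells, while the cycling genes as lists were not. Of 10 compared growth-arrest genes, 0 were higher and 2 were lower, 1 had a ratio above 0, and the median was -0.12. Over all compared genes 2.41% were lower and the median was 0.03. Cdkn2d, the inhibitor p19, was at 94.1 CPM with deoxycholic acid and 143 CPM in the media control, a log2 ratio of -0.60 (-0.69 to -0.52), and it had -0.38 in the other cells and ratios below -0.5 at each of the 4 stages of hypoxia-response cells, but -0.44 in cells thinned to 5000 UMIs. Btg2, an antiproliferative protein, had -0.56. Pcna (-0.68), the replication clamp, was the only one of 17 S phase genes past 0.5, and Cdk1 (-0.66) the only one of 18 G2 and M phase genes. Above 0 were 12 of the 17 S phase genes (median 0.11) and 12 of the 18 G2 and M phase genes (median 0.05). The share of all compared genes above 0 is not given, so these counts are not read as a lean of either list. In the other cells Pcna had -0.54 and Cdk1 had -0.64. Of 14 genes of the stress responses only Ppp1r15a, a phosphatase subunit that ends the integrated stress response, was past 0.5, at -0.68, and it had -0.46 without the basophil-marked cells. Of 18 ribosomal protein genes 0 were past 0.5, and of 15 antioxidant and iron genes only Sod2 (-0.72), the mitochondrial superoxide dismutase, was.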

How the data were processed

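Single-cell libraries came from 10x Genomics Chromium 3′ reagents, and 8000 cells were targeted per sample, per the labels' protocols; per the submitters' processing notes, Cell Ranger 6.0 was used. No source used here names the genome build or annotation. The authors deposited one table of raw UMI counts, with 32285 genes as rows and cells as columns.

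Kept cells had 300 or more genes detected and no more than 10% mitochondrial UMIs. No doublets were removed in the values reported: Scrublet in scanpy 1.11.5 marked 4 cells in each library with its automatic threshold, so removal of the highest 6% of scores was tried as an alternative. For each set of cells a gene's UMIs were added up and divided by the total (CPM). Comparison of a gene needed 20 CPM and 50 UMIs in the higher of both sets; a 0 was set to 3 counts. Strata of library and stage needed 50 hypoxia-response cells. Share intervals are Clopper-Pearson and ratio intervals exact conditional binomial, at 95%. The ratio computation was tested on simulated counts. Python 3.11.15, numpy 2.4.6, scipy 1.17.1 and pandas 2.3.3 were used.

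The members and the 28 gene lists were chosen with earlier results of these data known. Genes were named as the 10 highest and 10 lowest log2 ratios of each comparison, from which examples were taken, the 4 most abundant of each list, the score, stage and marker genes, and list members past 0.5; others were chosen after their values were seen.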

Additional observations from a re-analysis of the deposited data

How the results depend on the processing

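The ratio of the share of hypoxia-response cells, deoxycholic acid over media control, was above 1 under every alternative run. It was 1.38 at a score of at least 4, 1.28 without Bnip3 in the score (at 3 per 10000), 1.64 without Ero1l and 1.33 in cells thinned to 5000 UMIs, against 1.503. Among Elane-led cells it was 1.45 at a score of 4, 1.31 without Bnip3 and 1.35 thinned. Among cells low in all 3 it was 1.24 without Bnip3 and 1.14 with stages from 4 genes each.

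Counts of genes past 0.5 followed the selection and the minimum. Hypoxia-response over other cells gave 132 higher and 13 lower at a score of 4, 480 and 231 at a score of 9, 101 and 6 without Bnip3, 485 and 247 without Ero1l, 157 and 11 thinned, and 729 and 342 with no minimum. Deoxycholic acid over media control gave 1869 higher and 1513 lower with no minimum. Without Ero1l in the score, Prss34 (0.075), Cxcl2 (0.25) and Hdc (0.22) turned positive between the libraries, and Ccl4 (-0.76), Cpa3 (-1.40), Hdc (-0.74) and Prg2 (-0.89) turned negative against other cells. Without the basophil-marked cells, an alternative added after seeing the data, Prss34 was 0.70 (-0.43 to 1.91), at 1.01 CPM with deoxycholic acid and 0.617 CPM in the media control. The cause was not tested. No paired analysis was possible because the cell names carry no replicate number. Over the alternatives run, 3590 values of single genes stayed within the bounds of the main run and 541 moved outside them. A further 8 changed sign from a main ratio past 0.5. The bounds were the counting interval for ratios between the libraries and the range over strata for ratios against other cells. Changes of sign of smaller ratios were not counted separately. With 1 library a group, no replicate could be left out, and genes under 20 CPM in both sets of cells were not compared, apart from genes that fell below it without the basophil-marked cells.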
